A study of Mus musculus with 12 samples.

Results

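The genes described here are Stfa2, Stfa2l1, Cstdc4, Retnlg, Wfdc21, Asprv1, G0s2, S100a8 and S100a9, measured in the granulocytes of 4T1 mammary tumours. These 9 genes, of 19369 in the deposited tables, were picked with the measured expression of these same libraries in view, so their levels are given as a description and not as a test. All 9 were found by symbol in all 12 libraries, and granulocytes were the cells that the authors' own annotation calls by that name, 22860 cells in all after doublets were removed. 4T1 is a mouse triple-negative mammary carcinoma line of the BALB/c strain. Single cells of it had been expanded into the clones E, EM1, EM2, EM3 and M, which according to the series' design text span epithelial, intermediate and mesenchymal states, and the uncloned line is called Parental. The cells were injected into the mammary fat pad of female BALB/c mice of 9 to 11 weeks. Each clone or line is represented by 1 tumour, and each tumour by 2 libraries, 1 of the whole digest (Total) and 1 of cells selected with CD45 magnetic beads (CD45). No group has a replicate, so no difference between tumours was tested, each clone stands for 1 clone only, and all intervals below cover counting error alone.

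Neutrophils, the main granulocytes of mouse tumours, are made in the bone marrow, where they fill their granules with antimicrobial proteins before they enter the blood. Stefins are small cytosolic cystatins that block papain-like cysteine proteases such as the cathepsins B, L and S, and mice carry an expanded stefin family. S100a8 and S100a9 are calcium-binding proteins that pair as calprotectin, make up much of the neutrophil cytosol and, once released, can signal through the receptor Tlr4. Retnlg is a resistin-like secreted protein, Wfdc21 a small protein with a whey acidic protein (WAP) domain, Asprv1 a retroviral-like aspartic protease also known from the skin, and G0s2 an inhibitor of the lipase encoded by Pnpla2, which opens the breakdown of stored fat.

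The libraries held 6709 to 13467 cells and 28083101 to 122055131 UMIs (unique molecules counted). Granulocytes were shallow, with a median of 690 to 1460 UMIs per cell. The deposited libraries start at different floors, since the granulocyte with the fewest genes had 200 in the Parental CD45 library, 351 in E Total, 550 in EM3 Total and 650 in Parental Total. A level below is the sum of a gene's UMIs over the granulocytes of a library, per 1000000 of all their UMIs (CPM), and the CD45 libraries are given first. The granulocyte label was checked against 10 other neutrophil genes such as Csf3r, Cxcr2 and Mmp9, which together made up 13438 to 16215 CPM in the CD45 libraries. RNA typical of other cells was also present, with more from tumour epithelium and fibroblasts in the Total libraries and more from macrophages in the CD45 library of every tumour. The summed level of 6 tumour epithelium markers was 5.31 to 30.8 CPM in CD45 and 288 to 1103 CPM in Total granulocytes, that of 5 fibroblast markers 1.86 to 11.0 and 284 to 1114 CPM, and that of 10 macrophage and monocyte markers 2996 to 6212 and 1635 to 5006 CPM. Markers of squamous epithelium, another known source of Asprv1, summed to at most 6.30 CPM in CD45 granulocytes, with 4 of the 8 listed markers below 1 CPM in every tumour. No label states which libraries were captured together, so this was inferred from droplet barcodes. The E and EM3 libraries shared 15.1% to 16.7% of their barcodes, the EM1 and EM2 libraries 12.2% to 14%, and the 2 libraries of 1 tumour 12.7% to 19.1%, against at most 1.91% for every other pair. E with EM3, and EM1 with EM2, are therefore treated as pairs that may share a capture, and for any other pair of tumours capture and clone cannot be told apart.

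The stefin members sit in a row of related genes. Of 10 cystatin or stefin genes on chromosome 16 between 36119946 and 36455392 (GRCm38, GENCODE M21), Stfa2l1 occupies 36156811 to 36161953 on the plus strand, Cstdc4 36184212 to 36188111 on the plus strand and Stfa2 36403992 to 36408457 on the minus strand. The longest transcripts of Stfa2 and Stfa2l1 were 95.7% identical over 373 aligned bases, while Cstdc4 was 79.4% identical to Stfa2 and 79.1% to Stfa2l1. Of all 50-base windows, 14.7% of those in Stfa2, 16.8% in Stfa2l1 and 5.25% in Cstdc4 also occurred in another gene of the row. The split of counts between these copies is therefore uncertain, and their sum is given beside them. The 3 genes also share a stretch just upstream of their RefSeq starts, shown here because Stfa2l1 and Cstdc4 varied together from cell to cell. The RefSeq promoter table (GRCm38.p6) held 8 of the 9 genes. The capitals mark the longest run of bases common to the upstream 250 bases of the 3 stefins, on the strand of the gene. For Stfa2 the annotations differ, since GENCODE starts the gene further upstream, so that the stretch printed lies inside its GENCODE transcript, and it is kept short.
Stfa2 (chr16:36408373-36408402, minus strand): tacagaaACCTTTAAAACCCTGAgtctcta
Stfa2l1 (chr16:36156691-36156810, plus strand): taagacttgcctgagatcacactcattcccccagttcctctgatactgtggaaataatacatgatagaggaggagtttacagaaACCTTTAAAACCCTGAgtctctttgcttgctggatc
Cstdc4 (chr16:36184092-36184211, plus strand): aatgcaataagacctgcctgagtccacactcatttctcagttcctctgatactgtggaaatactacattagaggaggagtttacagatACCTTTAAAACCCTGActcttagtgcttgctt

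The shared run of 16 bases, ACCTTTAAAACCCTGA, ended 17, 21 and 17 bases before the RefSeq starts of Stfa2, Stfa2l1 and Cstdc4. Searched on both strands, it was present in 6 of 32851 upstream windows of 250 bases (0.0183%), those of Cstdc3, Cstdc4, Gm7260, Stfa1, Stfa2 and Stfa2l1. In Cstdc4, Stfa1, Stfa2 and Stfa2l1 it lay on the gene's strand. Stfa1, which carries the run, was counted at 1.40 to 8.97 CPM in CD45 granulocytes, and Stfa3, which lacks it, at 240.0 to 696 CPM. Across the 250 bases the windows of Stfa2 and Stfa2l1 were 92.3% identical, those of Stfa2 and Cstdc4 72.8%, and those of Stfa2l1 and Cstdc4 77.8%. The run is a description of these letters, not a tested site.

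Stfa2 was counted in CD45 granulocytes at 929 CPM in the EM1 tumour, 876 in EM3, 793 in M, 750 in EM2, 665 in E and 516 in Parental. The counting intervals of EM1 (878 to 982) and EM3 (848 to 904) overlapped, and Parental (480 to 555) lay below all others. Stfa2l1 stood at 1704 CPM in M, 1532 in EM1, 1394 in EM3, 1354 in Parental, 1290 in EM2 and 1262 in E, so that M was highest and the intervals of E and EM2 overlapped. Cstdc4 stood at 3670 CPM in EM1, 3391 in M, 2949 in EM3, 2936 in E, 2883 in Parental and 2684 in EM2. Together the 3 stefins made up 0.472% (EM2) to 0.613% (EM1) of all granulocyte UMIs. In the Total libraries Stfa2 was again lowest in Parental (538 CPM), while EM1 (752 CPM, interval 681 to 829) could not be ranked above EM3 (704 CPM, 669 to 741) or EM2 (670 CPM, 613 to 730.1). Stfa2l1 was nominally highest in M there too (1315 CPM, 1286 to 1345), with an interval that overlapped that of EM2 (1155 to 1313). The extremes of Cstdc4 were different there, with M at 2608 CPM and Parental at 2097 CPM. Neither was separable by counting error, since the interval of M (2566 to 2650) overlapped that of EM2 (2471 to 2699) and the interval of Parental (2001 to 2196) those of EM1 and E. Of the other genes in the row, Cstdc6 reached 839 CPM and Stfa3 696 CPM, both in EM1.

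S100a8 and S100a9 took up a large part of all molecules counted in granulocytes. S100a8 stood at 84756 CPM in EM2, 77256 in EM1, 61308 in EM3, 58995 in Parental, 55610 in E and 54683 in M. S100a9 stood at 111873 CPM in EM2, 105808 in EM1, 91503 in EM3, 89744 in Parental, 81549 in E and 74669 in M. Both genes were highest in EM2 and lowest in M, and they kept those extremes in the Total libraries (44565 to 76914 CPM for S100a8 and 62123 to 100083 CPM for S100a9). The pair held 12.9% of CD45 granulocyte UMIs in M and 19.7% in EM2, and the 9 genes together 14.4% and 21.2%. The EM1 and EM2 granulocytes were also among the shallowest, at a median of 739 and 690 UMIs, with Parental at 690 and the others at 990 to 1220, and the part of depth in these levels was not tested. With only granulocytes of at least 650 genes, the highest tumour was the same for 8 of the 9 genes, Cstdc4 being the exception, but the lowest was the same for 4 only, and was another for Stfa2l1, Wfdc21, Asprv1, G0s2 and S100a8. Because CPM values share 1 total, a higher S100 share lowers every other CPM. The ratio of S100a8 to S100a9 UMIs ranged from 0.657 (Parental, CD45) to 0.769 (EM2, Total).

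Retnlg stood at 4517 CPM in EM2, 3374 in EM1, 3281 in EM3, 2660 in M, 2551 in Parental and 2257 in E. EM2 was highest and E lowest in CD45, 2.00-fold apart. In Total E was nominally lowest again, 1.52-fold below EM2, but its interval (2081 to 2179) overlapped that of Parental (2102 to 2302). Nor could EM2 (3229 CPM, interval 3104 to 3359) be ranked above EM3 (3227 CPM, 3150 to 3306). The CD45 intervals of EM1 (3277 to 3473) and EM3 (3227 to 3336) overlapped, as did those of M (2612 to 2709) and Parental (2469 to 2635). Its relatives were low in CD45 granulocytes as a whole, with Retn at 4.98 to 8.15 CPM, Retnla at 0.92 to 13.4 CPM and Retnlb at 0 UMIs, though Retnla reached 71.9 CPM in cluster 5 of the granulocytes. Wfdc21 stood at 2202 CPM in EM2, 1976 in EM1, 1781 in Parental, 1656 in EM3, 1518 in E and 1410 in M, with no overlap of neighbouring intervals. Like the S100 genes it was highest in EM2 and lowest in M, also in the Total libraries (1178 to 1955 CPM). Of the other WAP genes in granulocytes, Slpi, an inhibitor of neutrophil elastase, was at 1602 to 2052 CPM and Wfdc17 at 2401 to 3818 CPM.

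Asprv1 had the widest spread of the 9 genes in the Total libraries. In CD45 granulocytes it stood at 2241 CPM in M, 1663 in EM3, 1551 in EM1, 1456 in EM2, 1368 in E and 1253 in Parental. M lay above every other tumour, and its interval (2197 to 2286) was clear of that of EM3 (1624 to 1702), while the intervals of E, EM1 and EM2 formed an overlapping chain. In the Total libraries M was again highest (1803 CPM) and Parental lowest (705 CPM), 2.56-fold apart. Parental also had the highest summed tumour epithelium and fibroblast markers among the Total granulocytes, and their part in its low value was not tested. In CD45 granulocytes, where the tumour epithelium markers summed to at most 30.8 CPM, the 2 tumours were 1.79-fold apart. There the macrophage and monocyte markers were lowest in M (2996 CPM) and highest in Parental (6212 CPM), and their part was not tested.

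G0s2 followed another order. It stood at 2714 CPM in Parental, 2404 in EM2, 2167 in E, 2150 in M, 2141 in EM1 and 1652 in EM3. Parental was highest and EM3 lowest in both kinds of library, while E, EM1 and M had overlapping intervals. Of the listed genes around lipid storage, Plin2, a lipid droplet coat protein, at 3315 CPM and Hilpda, another inhibitor of the same lipase, at 1698 CPM were highest in M. Over the 6 listed genes of at least 50 CPM in CD45, G0s2 among them, the largest fold between tumours was 1.97, that of Hilpda. The order of the others is not given here. Pnpla2 itself, the target of G0s2, was at 137 to 236 CPM.

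**Figure D1:**
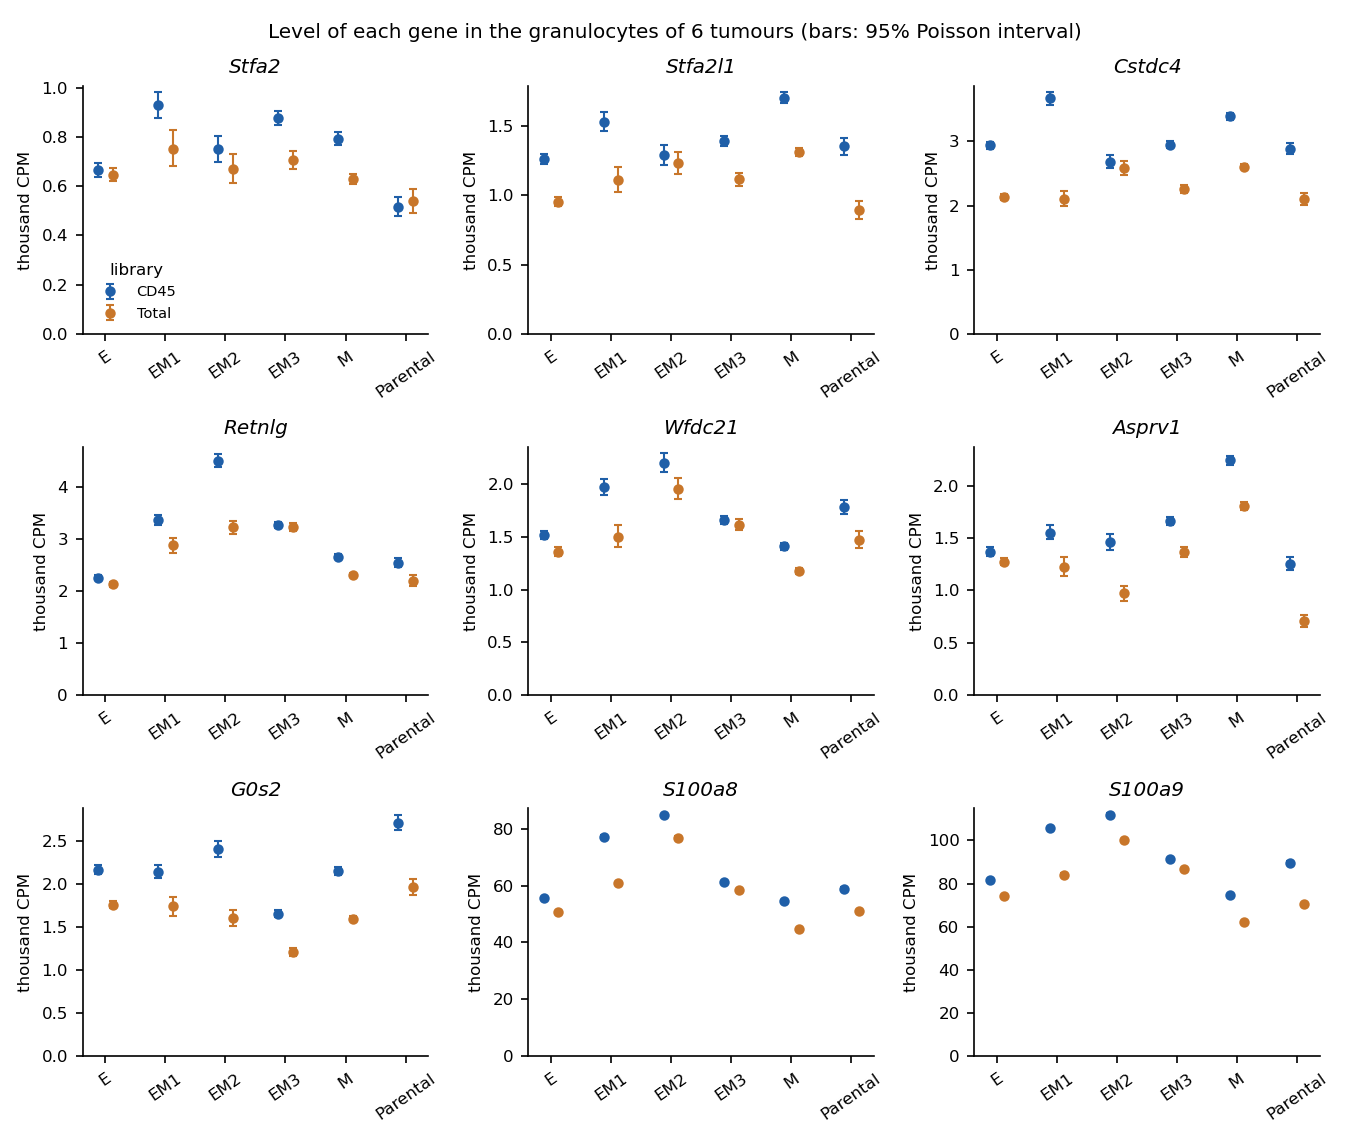
Level of the 9 genes (CPM divided by 1000, axis from 0) in the granulocytes of each tumour, with CD45 libraries in blue, Total libraries in orange and exact 95% Poisson intervals as bars. Wfdc21, S100a8 and S100a9 peak in EM2 and Asprv1 in M in both kinds of library, Retnlg in EM2 (CD45) or in EM2 and EM3 alike (Total), and G0s2 is highest in Parental.

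The study compares tumours of clones in different states, so each of the other 5 tumours was set against E, and EM1 against EM2 as the second pair inferred to share a capture. A gene was called when the log2 ratio of CPM + 10 was at least 1 or at most -1, among genes of at least 50 CPM in 1 of both tumours. None of the 9 genes was called in any of these 12 comparisons, for which there is no replicate check. The share of all tested genes called in the CD45 libraries was 2.08% for EM1 over E, 2.76% for EM2 over E, 0.753% for EM3 over E, 4.53% for M over E, 2.52% for Parental over E and 0.956% for EM1 over EM2. In the Total libraries it was 4.51%, 4.62%, 2.33%, 4.37%, 13.3% and 2.5% in the same order, so a count of 0 among 9 genes is near these backgrounds. The ratio nearest the limit was that of Retnlg in EM2 over E (log2 ratio 1.00 after rounding, just inside it), which passed with a pseudocount of 1 CPM and with CPM over all genes but these 9. With only granulocytes of at least 650 genes, 4 ratios of the CD45 libraries passed: Retnlg in EM1 and EM2, and Wfdc21 and S100a8 in EM2, each over E. That filter left 1126 granulocytes in E, 200 in EM1 and 122 in EM2. The share of all genes called with it was not computed, so this count has no background. The comparisons with E share the E libraries, and E was lowest or next to lowest for several genes. The members' median log2 ratio over E was 0.38 in EM1, against -0.14 over all tested genes, and 8 of the 9 genes were above 0. In EM2 it was 0.17 against -0.19, in EM3 0.14 against -0.03, in M 0.21 against 0.00 and in Parental 0.10 against -0.06. In the Total libraries the members' median was 0.18 against 0.00 in EM1, 0.36 against -0.09 in EM2 and 0.21 against -0.01 in EM3. It lay below that of all genes in M (-0.04 against 0.09) and Parental (-0.02 against 0.09), with 4 of the 9 genes above 0 in each. Between EM1 and EM2 the members' median was -0.08 against 0.05, with Cstdc4 at 0.45 (counting interval 0.36 to 0.54) and Retnlg at -0.42 (-0.50 to -0.34). The sign for Cstdc4 was opposite in the Total libraries (-0.29, interval -0.44 to -0.15).

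Across the 6 tumours the fold between the highest and the lowest level had a median of 1.56 over the 9 genes in the CD45 libraries and 1.61 in Total, beside 1.49 and 1.62 over all genes of at least 50 CPM. The median of the 9 genes was thus near that of all genes, a background that was not matched on level. Single genes varied in CD45, from Stfa2l1, which spread wider than 27.2% of all genes, to Retnlg, wider than 86.9%. The median fold was larger for specific granule and inflammatory genes in both kinds of library, while that of mature surface genes was not. Primary granule genes of early neutrophils had the widest median of the lists in Total, 9.01 over 3 genes, all called higher in EM2 than in E. None of them reached 50 CPM in CD45. The specific granule genes, made while neutrophils mature, had a median fold of 3.76 in CD45 over 8 genes, with the antimicrobial peptide gene Camp at 139 (M) to 1260 CPM (EM2), Ngp at 1020 to 6657 CPM and lactoferrin (Ltf) at 292 to 2399 CPM. Ltf, Camp and Ngp were called higher in EM2 than in E and lower in M than in E in both kinds of library. S100a8, S100a9 and Wfdc21 shared these extremes, EM2 highest and M lowest, but not the order between them, since the granule genes had a median log2 ratio over E of -0.51 in EM3, 0.03 in EM1 and 0.43 in Parental in the CD45 libraries. The inflammatory group of cytokine and effector genes had a median fold of 2.42 over 16 genes. Cxcl3, a chemokine that attracts neutrophils, ran from 1653 CPM in E to 354 CPM in M, and the arginase gene Arg1, which macrophages also express, from 73.2 CPM in EM1 to 521 CPM in EM3. Both were called lower than in E in EM1, EM2 and M. Those 3 tumours had the lowest macrophage markers in CD45 granulocytes (3746, 3903 and 2996 CPM, against 5231 in E, 5550 in EM3 and 6212 in Parental). In Total granulocytes the order was another, with EM1 at 1635, EM2 at 2270, Parental at 2278, M at 2487, E at 3815 and EM3 at 5006 CPM. Neither Cxcl3 nor Arg1 was called lower in Parental than in E there. Other genes of the group had other tumours. In both kinds of library Il1a was called lower than in E in EM1, EM2 and EM3, Cd274 in EM2, M and Parental, and Tnf in EM3. The part of macrophages in any of these was not tested. The cathepsins that stefins inhibit had a median fold of 2.00 over 7 genes in CD45 but 1.65 over 6 genes in Total, close to all genes there. Ctss was called lower in M than in E in both kinds of library (374 against 1090 CPM in CD45), and macrophage markers, of cells that also express Ctss, were lower there as well (2996 against 5231 CPM). Their part was not tested. Ctsb ran the other way in level, from 1934 CPM in E to 3256 CPM in M, short of the call. Of the listed receptors of the S100 pair, Tlr4 was at 237 to 300.2 CPM and Ager at 2.99 to 11.3 CPM. Mature neutrophil surface and motility genes had a median fold of 1.54 over 11 genes. Ly6g, the surface marker used to sort mouse neutrophils, was the widest of them and ran from 114 CPM in M to 400 CPM in EM2.

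Levels also differed between states of granulocytes. The median fold over the 9 genes between the highest and lowest cluster of pooled cells was 4.04 (9.91 with the finer clusters of a resolution of 1.0). That larger value rests on 1 small cluster of 659 cells, whose leading genes include Retnla and the eosinophil marker Ccr3, and in which S100a8 was at 9350 CPM, and it was 6.20 without that cluster. The 22860 granulocytes were clustered on other genes, without the 9, which gave 7 clusters numbered by size. Clusters are built to separate cells by expression, and genes that vary together share these cells, so the levels by cluster are a description. Their fold cannot be ranked against that between tumours, and the same fold over all genes was not computed. Cluster 1 (7120 cells) was led by Ccl3, Icam1, Tnf, Il1a and Car4, cluster 2 (5003 cells) by Rdh12, Jaml, Cxcr2, Dusp6 and Entpd1, and cluster 3 (3447 cells) by Slc8b1, Gpsm1, Rnh1, Fnip2 and Tbc1d2. Cluster 4 (2862 cells) was led by the heat shock genes Hspa1a and Hspa1b with Ccnf, Ciart and Plcxd2, cluster 5 (2483 cells) by Plekhg2, Retnla, Mdc1, H1fx and Cadm4, cluster 6 (1341 cells) by the granule genes Camp, Ngp, Ltf and Cd177 with Ifitm6, and cluster 7 (604 cells) by the interferon-induced genes Rsad2, Cmpk2, Ifit1, Usp18 and Ifit3. Cells of cluster 6 were the deepest, with a median of 3093 UMIs against 754 to 1320 in the other clusters. Every cluster but the seventh had at least 20 cells in each library.

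The 9 genes fell into different patterns over these clusters. Retnlg was highest in cluster 6 and lowest in cluster 1 in 12 of 12 libraries. Its level had a median over libraries of 8784 CPM in cluster 6 (6735 to 11392) and 248 CPM in cluster 1 (107 to 499), a fold of 39.6 (20.2 to 66.9). Wfdc21 had the same extremes in 12 of 12 libraries, at 3876 CPM in cluster 6 and 489 CPM in cluster 1, a fold of 8.07 (4.69 to 16.9). S100a8 and S100a9 were also highest in cluster 6 in every library, with folds over cluster 1 of 5.38 (4.06 to 7.97) and 3.43 (2.63 to 4.74). In cluster 6 the S100 genes reached medians of 135389 and 159600 CPM. The ratio of S100a8 to S100a9 was highest there too in 12 of 12 libraries, at 0.87, against 0.55 in cluster 1.

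The stefins differed in their top cluster at this resolution. Cstdc4 was highest in cluster 2 in 12 of 12 libraries, at a median of 4049 CPM. Its level in cluster 1 (3074 CPM) lay above that in cluster 6 (2578 CPM) in 9 of 12 libraries. Clusters also differ in their S100 share, which lowers every other CPM. In pooled cells S100a8 and S100a9 took 136776 and 157387 CPM in cluster 6, against 24818.5 and 44655 CPM in cluster 1. The part of this in the cluster orders of the stefins and G0s2 was not tested. Stfa2l1 was highest in cluster 2 in 10 of 12 libraries (1849 CPM) and lowest in cluster 4 in 10 (651 CPM). Stfa2 was highest in the granule-gene cluster 6 in 11 of 12 libraries (1361 CPM), with a fold over cluster 1 of 4.12 (2.28 to 7.23) and its next highest level in cluster 2 (862 CPM). Asprv1 was highest in cluster 3 in 10 of 12 libraries (2266 CPM), above cluster 2 in 12 of 12 by a median fold of 1.52. G0s2 was highest in cluster 2 in 7 libraries, cluster 5 in 3 and cluster 1 in 2, and was lower in cluster 6 than in cluster 1 in 12 of 12 (fold 0.70). Retnlg was thus higher and G0s2 lower in cluster 6 than in cluster 1. These clusters were not the extremes of G0s2, which was lowest in cluster 4 in 8 of 12 libraries. The top clusters of several genes depended on the resolution. At a resolution of 1.0 the granule genes were spread over cluster 15 (407 cells), led by Camp, Ltf and Ngp, and cluster 10 (1139 cells), with Stfa3, Mmp8, Cd177 and Ifitm6 among its leading genes. Wfdc21, S100a8 and S100a9 were highest in pooled cells of cluster 15. Retnlg was highest in cluster 10 (10282 CPM against 6432 CPM in cluster 15), as was Stfa2 (1764 against 1103 CPM). Stfa2l1 was highest in cluster 10 as well (2007 CPM), beside 1894 CPM in cluster 3 of that resolution, which was led by Rdh12, Jaml and Cxcr2, so Stfa2 and Stfa2l1 had the same top cluster there. Cstdc4 was highest in that cluster 3 (4081 CPM).

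**Figure D2:**
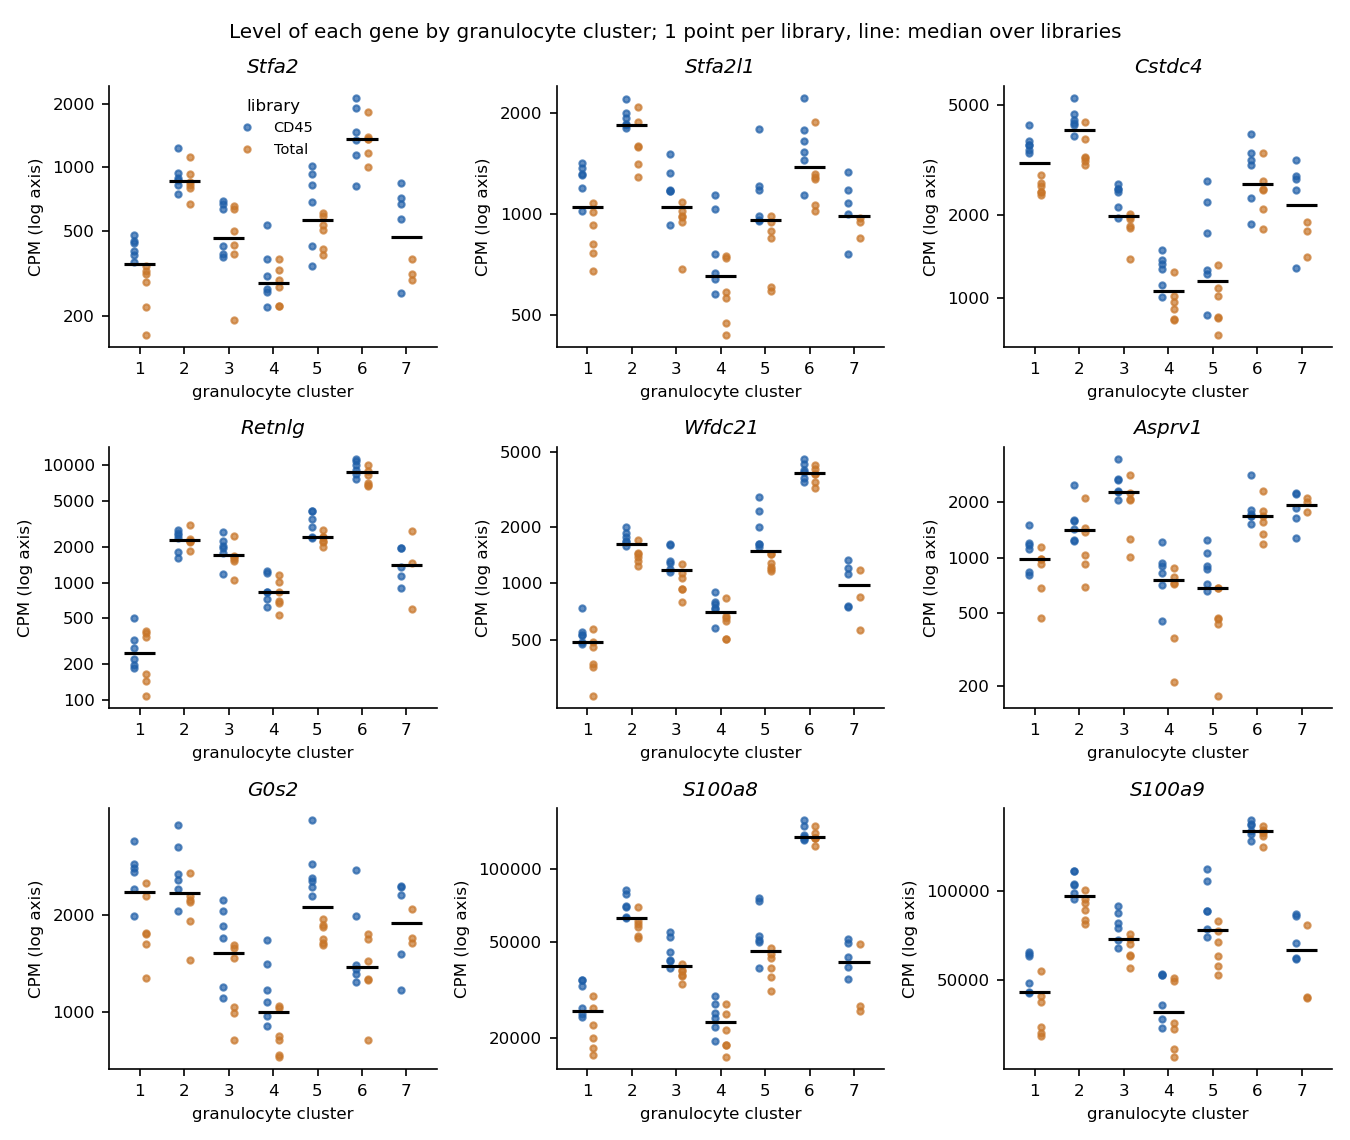
Level of the 9 genes (CPM, log axis) in 7 granulocyte clusters made without these genes; each point is 1 library with at least 20 cells in the cluster, blue for CD45 and orange for Total, and the line is the median over libraries. Retnlg, Wfdc21, S100a8 and S100a9 stand highest in cluster 6, Cstdc4 in cluster 2 and Asprv1 mostly in cluster 3.

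Each tumour was then given the mean mix of clusters of its kind of library. In the CD45 libraries the tumours moved closer for Retnlg, Wfdc21, S100a8 and S100a9, which peak in cluster 6, but hardly for Stfa2, which mostly peaks there too. Retnlg went from 4517 to 3631 CPM in EM2 and from 2257 to 2370 CPM in E, the highest and the lowest tumour before and after. Wfdc21 went from 2202 to 1935 CPM in EM2 and from 1410 to 1604 CPM in M, after which E was lowest at 1574 CPM. S100a8 went from 84756 to 74058 CPM in EM2 and from 54683 to 61808 CPM in M, after which E was lowest at 57341 CPM. S100a9 kept EM2 and M as its extremes, and their fold went from 1.5 to 1.27. In the Total libraries Retnlg in EM2 went from 3230 to 2524 CPM, beside 2199 CPM in E, and EM3 was then highest at 3292 CPM. Wfdc21 was then highest in EM3 as well (1638 CPM, against 1535 CPM in EM2). S100a9 was nearly equal in EM3 (88121 CPM) and EM2 (88102 CPM), while S100a8 stayed highest in EM2 (63330 CPM). The extremes of Asprv1, M over Parental, stayed nearly as far apart (1.79 to 1.74 in CD45 and 2.56 to 2.51 in Total), as did those of G0s2, Parental over EM3 (1.64 to 1.65 in CD45). For Stfa2 in CD45, M rose from 793 to 918 CPM, above EM3 (910 CPM) and EM1 (898 CPM), and Parental remained lowest at 521 CPM. The fold between the highest and the lowest tumour for Stfa2 there went from 1.80 to 1.76. The smallest cluster held as few as 18 cells in a CD45 library and 3 in a Total library, both Parental, which limits these values.

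Single granulocytes were compared after each was thinned to 500 UMIs. In the CD45 libraries S100a8 was then found in 95.8% to 99.4% of granulocytes and S100a9 in 97.4% to 99.7%. Cstdc4 was found in 42.2% (E) to 52.5% (EM1), Stfa2l1 in 30.1% (E) to 38.6% (M) and Stfa2 in 13.1% (E) to 21.3% (EM1). Retnlg was found in 22.8% (E) to 34.6% (EM2), Wfdc21 in 31.7% (E) to 41.9% (EM1), Asprv1 in 29.6% (Parental) to 42.2% (M) and G0s2 in 41.6% (EM3) to 55.3% (EM2). The thinning left out 89 to 365 shallower granulocytes per library. The same shares in T cells were 0% to 0.53% for Stfa2, 1.18% to 2.69% for Cstdc4 and 0.51% to 1.93% for G0s2. For S100a8 they were 25.4% to 40.5%, and for S100a9 20.5% to 40.9%, at a median depth of 994 to 1724 UMIs per T cell against 762 to 1241 in the granulocytes used. The stefins were concentrated in a part of the granulocytes: 34.9% (EM1) to 46.9% (E) of cells had no UMI of any of the 3, at a mean of 2.15 to 3.02 UMIs per cell and a variance of 10.9 to 15.4. The S100 pair took a median of 8.2% to 14.7% of a granulocyte's UMIs, and from 0.6% to 2.4% at the 5th percentile to 25.8% to 35.1% at the 95th.

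Within libraries, S100a8, S100a9, Retnlg and Wfdc21 also varied together from cell to cell, while Stfa2 went with the other stefins more than with the granule genes. The Pearson correlation of log counts in thinned cells, given as a median over 12 libraries with its range, was 0.82 (0.73 to 0.84) for S100a8 with S100a9. It was 0.47 (0.40 to 0.52) for Retnlg with S100a8, 0.42 (0.27 to 0.50) for Retnlg with Wfdc21, and 0.50 (0.35 to 0.59) for Retnlg with Lcn2, the granule gene for lipocalin 2. Among the stefins it was 0.42 (0.37 to 0.44) for Stfa2l1 with Cstdc4 and 0.35 for Stfa2 with each of the others, against 0.09 for Stfa2 with Ngp. Retnlg and Cstdc4 had 0.04. Asprv1 did not exceed 0.15 with any of the other 8 genes, and G0s2 did not exceed 0.10. All points of a library share its capture and its free RNA, and at 500 UMIs weak values are not findings.

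**Figure D3:**
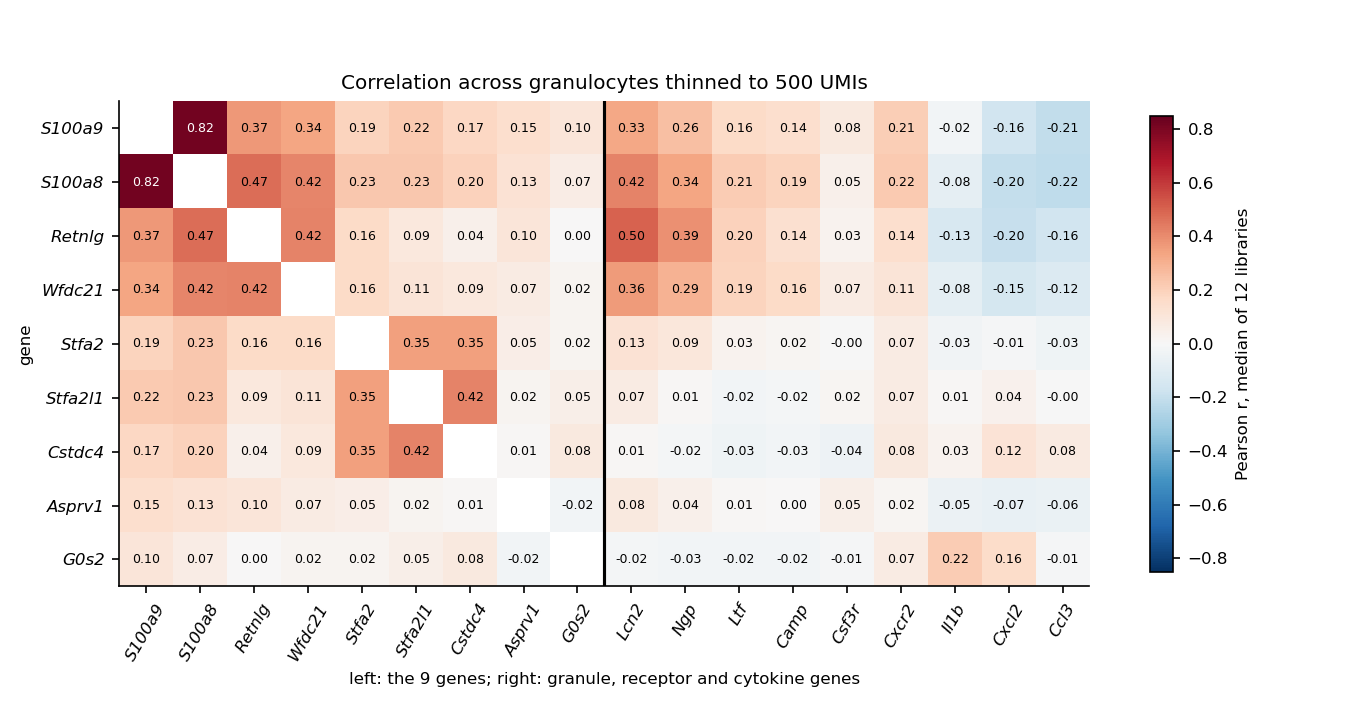
Pearson correlation (colour and number, median of 12 libraries) across granulocytes thinned to 500 UMIs between the 9 genes (rows) and, left of the black line, the same 9 genes and, right of it, granule, receptor and cytokine genes. S100a8, S100a9, Retnlg and Wfdc21 form 1 block together with Lcn2 and Ngp, the 3 stefins another, and Asprv1 and G0s2 belong to neither.

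In the other annotated classes the 9 genes were found at low levels. The median of the 9 levels in T cells of the CD45 libraries, as a percent of that in granulocytes of the same library, was 0.594% to 1.59%. In macrophages it was 0.25% to 0.675%, in B cells 0.818% to 5.24%, and in tumour cells of the Total libraries 0.0841% to 0.587%. The small class that the authors call T/Myeloid Hybrid stood apart, with 6.75% to 23.7%. In macrophages of the CD45 libraries Wfdc21 stood at 1.70% of its granulocyte level in E, 1.18% in EM3, 1.08% in M and 0.646% in Parental. It was the highest of the 9 in each of these, but not in EM1 (0.283%) or EM2 (0.277%). In Total it was the highest in macrophages of E (1.94%) and M (1.61%) only. Wfdc21 was also the highest of the 9 in fibroblasts of EM1, EM2, M and Parental. The ratio of S100a8 to S100a9 in the CD45 libraries was higher in macrophages and T cells, at 0.952 to 1.19 in macrophages and 0.891 to 1.12 in T cells against 0.657 to 0.758 in granulocytes. It was 0.755 to 0.833 in B cells and 0.752 to 0.842 in the class Other Myeloid. In both it lay above that of the granulocytes of the same library in every tumour, such as 0.789 in B cells against 0.758 in EM2. In the remaining classes it reached into the granulocyte range or below it, at 0.698 to 1.06 in dendritic cells, 0.586 to 1.05 in NK cells and 0.508 to 0.909 in the hybrid class. The median of the ratio in cluster 6 was 0.87. Whether the molecules in other classes are free granulocyte RNA was not tested.

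**Figure D4:**
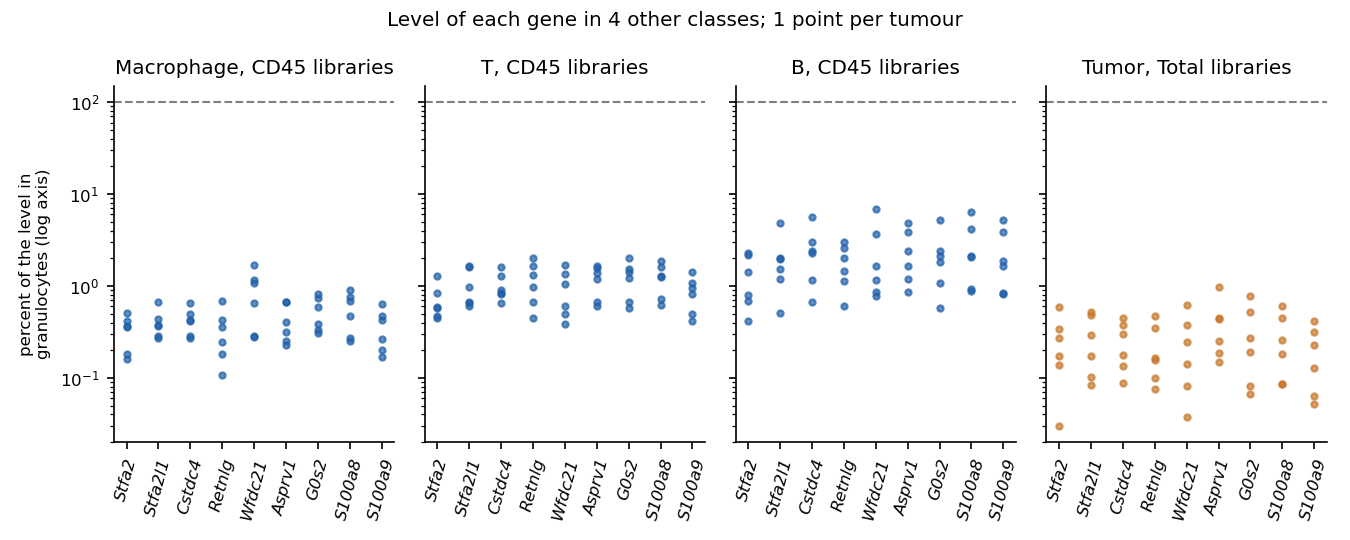
Level of each gene in macrophages, T cells and B cells of the CD45 libraries and in tumour cells of the Total libraries, as a percent of its level in granulocytes of the same library (log axis; 1 point per tumour; dashed line at equal level). No point of the T cell panel exceeds 2.01%, B cells reach 6.85%, and Wfdc21 reaches 1.70% in macrophages.

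The genes whose granulocyte level was most like the summed stefins over the 12 libraries, among 4246 genes, were Prdx5 (Pearson r 0.92 of log2 CPM + 10), Lcp2 (0.92), Tyrobp (0.91), Ostf1 (0.90), Cap1 (0.90) and Spi1 (0.89). Those most unlike it were Gprc5a (-0.94), Nacc1 (-0.93), Ifi211 (-0.93) and Far1 (-0.93). Within 1 kind of library the values were mostly weaker. Over the 6 CD45 libraries the 6 most like genes had 0.58 (Spi1) to 0.96 (Ostf1), and over the 6 Total libraries 0.53 (Ostf1) to 0.88 (Spi1). The 4 least like had -0.91 to -0.84 in CD45 and -0.78 to -0.64 in Total. The 12 points are 6 tumours in 2 kinds of library, and Gprc5a was at 6.93 to 24.2 CPM in CD45 but 37.6 to 133 CPM in Total granulocytes, so the kind of library enters these values.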

How the data were processed

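Single-cell libraries of 6 tumours, 2 per tumour, were analysed from the deposited UMI counts per gene and cell, which per the submitters' processing notes came from Cell Ranger and mm10 (versions not given in the sources used here). Per the labels' protocols, digested tumours passed red cell lysis and a fixed-RNA kit, though 3′ reagents are also named. After the droplet barcode, the cells of each library carried a single shared tag, of the kind that the probes of a fixed-RNA kit carry. The counts are therefore read as probe counts, and levels of different genes may also reflect their probes. The deposited cell tables also hold the mitochondrial share of UMIs as a fraction and as a percent, and a score of log10 genes over log10 UMIs, as named per the file headers; none of them enters a result.

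Counts were summed over annotated granulocytes (Python 3.11.15). Doublets scored by simulation were removed (34 of 22894 granulocytes). Cells were thinned to 500 UMIs for shares and correlations, with exact binomial and Poisson intervals at 95%. Clusters (leidenalg 0.10.2, resolution 0.5, 20 neighbours, 20 components of 1000 variable genes) left out the 9 genes and were centred by library. Transcripts were aligned with Biopython 1.88. The scripts were tested on simulated data. The members, the gene lists and the rules were chosen with earlier results of these data known. Other genes are named by these rules: list genes past the fold in the same direction in both kinds of library or at the extremes of a list, the 5 leading genes of each cluster, and the 6 most and 4 least like the stefins. The alternatives were other pseudocounts, filters, cells, denominators, thinning depths and cluster resolutions. Tlr4, Pnpla2, Hilpda, Slpi, Lcn2, Ly6g and Cstdc6 were named after their values were seen.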

Additional observations from a re-analysis of the deposited data

How the results depend on the processing

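The median fold between the highest and the lowest tumour over the 9 genes, 1.56 in the CD45 libraries, was 1.79 with at least 650 genes per cell, 1.68 with CPM over the UMIs of all other genes, 1.5 as the mean of each cell's CPM and 3.63 in the few granulocytes (5 to 192 per library) without a macrophage, T or B cell marker UMI. None of 54 member ratios between tumours was called, against 1 with a pseudocount of 1 CPM and 1 with CPM over all other genes (both Retnlg in EM2 over E). With at least 650 genes per cell 4 were called, and without marker UMIs 13. The share of all genes called was not computed for these cell filters or for that denominator. The tumour with the highest level was the same for 9 of 9 genes with doublets kept and for 8 of 9 in the Total libraries. In Total 11 of 54 ratios had the other sign, 9 of them outside the counting interval. With at least 650 genes per cell 8 ratios had the other sign, 5 of them outside the counting interval. Without marker UMIs the highest tumour was the same for 5 of 9 genes and the lowest for 2 of 9. There 23 of 54 ratios had the other sign, 16 of them outside the counting interval. Over all genes, the calls for EM1 over E were 60, and 98 with no minimum level and 155 in the Total libraries. Those for EM2 over E were 80, and 144 with no minimum, 134 with a pseudocount of 1 CPM and 158 in Total. Those for EM3 over E were 22, and 37 and 78. Those for M over E were 136, and 211 with no minimum. Those for Parental over E were 75, and 113 with no minimum and 520 in Total. Those for EM1 over EM2 were 25, and 46 with no minimum and 85 in Total. The median share of granulocytes with a UMI was 35.5% at 500 UMIs, 22.2% at 250 UMIs and 47.1% without thinning, which moves with depth by construction. The median fold between clusters was 4.04, 9.91 at a resolution of 1.0 and 6.20 there without cluster 12, an alternative chosen after seeing the data. For the other moves the cause was not tested. The CD45 and Total libraries of a tumour form a pair, but no paired test between clones was possible because each clone or line has 1 tumour. With 1 tumour per group, the spread between animals is unknown, and the depth per granulocyte (median 690 to 1460 UMIs) limits the single-cell values.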
